A study of Rattus norvegicus with 8 samples.

Results

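The 10 genes described here belong to the major histocompatibility complex (MHC) antigen presentation pathway of the rat, whose MHC genes carry the prefix RT1. They were chosen by symbol, with earlier results of these data known. They fall into 6 class II genes (Cd74, RT1-Ba, RT1-Bb, RT1-Da, RT1-DMa and RT1-DMb) and 4 genes of class I processing (B2m, Tap1, Tap2 and Psmb8). Every probe whose RefSeq accession belonged to one of these genes was collected, which found 9 of the 10 genes on the array. Of these, 8 were measured well enough to be tested among 20935 features (genes, or accessions without a symbol) in all.

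MHC class II molecules are pairs of an alpha and a beta chain that show peptides from the endosomal compartment to helper T cells. They are made mainly by macrophages, dendritic cells and B cells, and in the kidney largely by the mononuclear phagocytes that lie between the tubules. Class I molecules are built in nearly all cells and show peptides that the proteasome cuts in the cytosol and that the TAP transporter carries into the endoplasmic reticulum. Class II genes are switched on together by the coactivator CIITA, acting through the X and Y boxes of their promoters. Class I processing genes respond strongly to interferon through interferon response elements.

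The animals were 10-week-old female F344/NSlc rats. Of the 8 right kidney samples, 4 are labelled as sham-operated and 4 as nephrectomized, that is, taken after unilateral nephrectomy, in which 1 kidney is taken out and the other is left in place. The study asked how the remaining kidney adjusts, and the question here is whether the class II and class I processing genes differed between the groups. The design text places sampling 2 days after surgery, while by the source names the sham kidneys were taken at day 1 and the nephrectomized kidneys at day 2. Should the source names hold, the day of sampling and the operation cannot be told apart in any comparison below. The labels give separate samples and name no animals, so each p-value reflects only how these samples vary. RNA came from kidney tissue, in which fewer cells of a type and less RNA per cell cannot be told apart.

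Each sample had its own 1-colour array, on which 59.5 to 66.1% of 41012 probes were well above background and 0 were saturated. Values are log2 of the processed probe intensity minus the array's 75th percentile, so 0 is the level of that percentile and a difference of -1 is a halving. All 8 kidney markers were measured (Umod of the thick ascending limb had a mean of 8.89 in sham and 8.92 in nephrectomized kidneys, and Nphs1 of the podocyte 1.71 and 1.69), and 0 of them were called. The arrays lay on 2 slides, with replicates 1 and 2 of each group on slide 1 and replicates 3 and 4 on slide 2. Sham arrays occupied positions 1 and 2 of a slide and nephrectomized arrays positions 3 and 4, so position and group cannot be told apart. A feature was called when its Benjamini-Hochberg adjusted p in limma, over all 20935 features, was under 0.05.

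The promoters of these genes were searched for the boxes through which class II genes and interferon-responsive genes are known to be controlled. A promoter window here is the 300 bases from 250 before to 50 after a RefSeq gene start, and 9 of the 10 genes matched one among 33469 windows. The stretches below hold the class II motifs of RT1-Da, RT1-Bb, RT1-DMa and RT1-Ba, written 5′ to 3′ along the gene's strand, with the X box and the Y box in capitals in the first 3 and the Y box alone in the last.
RT1-Da: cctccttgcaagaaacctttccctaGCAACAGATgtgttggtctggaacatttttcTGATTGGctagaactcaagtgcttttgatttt
RT1-Bb: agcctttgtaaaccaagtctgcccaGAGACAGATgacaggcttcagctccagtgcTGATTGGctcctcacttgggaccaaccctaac
RT1-DMa: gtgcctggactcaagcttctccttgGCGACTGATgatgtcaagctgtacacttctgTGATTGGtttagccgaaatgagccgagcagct
RT1-Ba: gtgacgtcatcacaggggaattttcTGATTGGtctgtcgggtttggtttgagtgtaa
On the RefSeq assembly GRCr8 these stretches lie upstream of the gene starts at chr20:4515308-4515395 (plus strand), chr20:4604150-4604236 (minus strand), chr20:4712370-4712457 (minus strand) and chr20:4576987-4577043 (plus strand).

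The Y box was searched as TGATTGG and the X box as GNNACNGAT, both on either strand, and these letters were settled with the promoter sequences in view, so the counts are descriptions from which no enrichment is read. The Y box was in 4 of the 5 class II windows and 0 of the 4 class I processing windows, against 7.06% of all windows. The X box was in 3 of 5 class II windows and 0 of 4 class I processing windows, against 7.83% of all windows. In the 3 windows that held both, 21 bases lay between the boxes in RT1-Bb and 22 in RT1-Da and RT1-DMa. RT1-Bb held a further X box match upstream, and the nearer one is used here. The X box began 93, 82 and 97 bases before the start of RT1-Bb, RT1-Da and RT1-DMa, and the Y box 63, 51 and 66 bases before it. The shorter CCAAT core, which the Y box contains on its other strand, was in 5 of 5 class II windows, Cd74 among them, in 2 of 4 class I processing windows (B2m and Psmb8) and in 37.5% of all windows.

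The interferon response element was searched as GAAANNGAA on either strand, with letters settled in the same way, and was in 4 of 4 class I processing windows, 0 of 5 class II windows and 9.71% of all windows. It is in capitals in the stretches of B2m, Tap2 and Tap1, and in Tap1 the capitals are the motif as read from the opposite strand.
B2m: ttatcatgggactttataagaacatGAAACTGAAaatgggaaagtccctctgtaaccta
Tap2: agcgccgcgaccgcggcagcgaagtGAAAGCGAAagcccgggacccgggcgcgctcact
Tap1: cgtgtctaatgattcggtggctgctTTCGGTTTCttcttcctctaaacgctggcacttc
These lie on GRCr8 at chr3:129549155-129549213 (plus strand), chr20:4652304-4652362 (minus strand) and chr20:4668630-4668688 (minus strand). Such matches describe letters in a window. They show neither binding nor a cause of the values that follow, and a window without a match only lacks these letters.

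**Figure D1:**
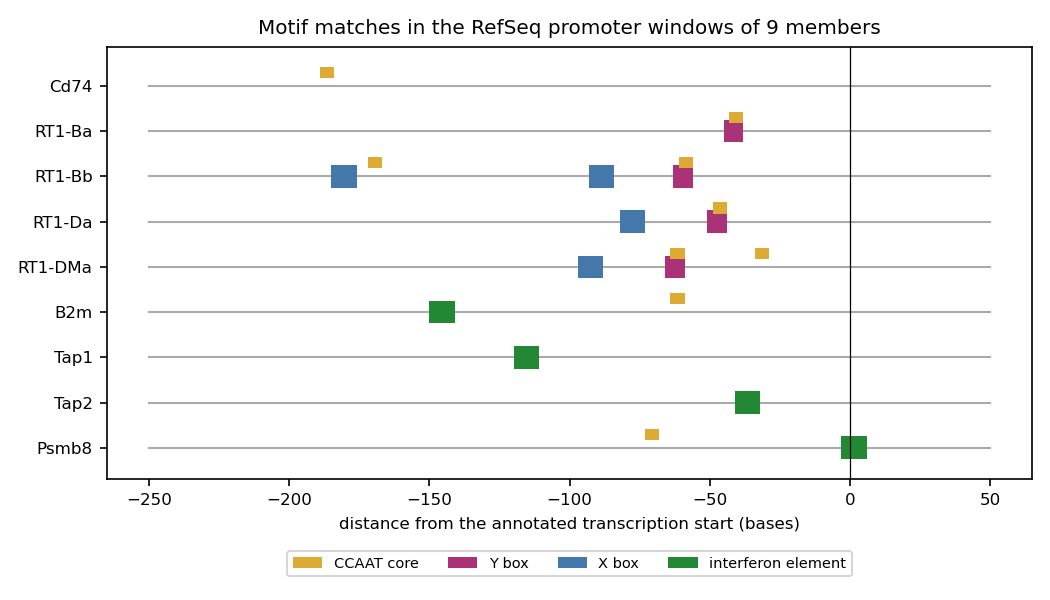
Positions of the searched motifs in the 300-base promoter windows of the 9 genes with an entry, with the x axis in bases from the annotated gene start and 1 line per gene. The Y box appears in 4 class II windows, paired with an X box in 3, and the interferon element appears in the 4 class I processing windows.

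All 4 tested class II genes had lower means in the nephrectomized kidneys, by 0.23 to 0.35 on the log2 scale, and none passed the adjusted threshold. Of these 4 genes, 0 were called lower, where 0.287% of all features were, and 0 were called higher, where 0.75% were. At an unadjusted limma p under 0.05, 4 of 4 were lower, against 6.3% of all features, and in 3 of 4 the groups did not overlap, against 4.07% of all features. Their median difference was -0.28, beside 0.0089 over all features. These genes were chosen with earlier results of these data known, and they varied together within the groups. No enrichment is read from these shares.

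Cd74 encodes the invariant chain, which holds new class II molecules together and guides them to the endosome. It measured 6.66, 6.50, 6.33 and 6.39 in sham replicates 1 to 4 and 6.19, 5.995, 6.18 and 6.10 in nephrectomized replicates 1 to 4. Every nephrectomized kidney lay below every sham kidney, and the sham kidney closest to them was replicate 3. The group means were 6.47 ± 0.14 and 6.12 ± 0.09 (SD, n = 4 each). The difference was -0.35 ± 0.08 (SE; 95% interval -0.55 to -0.16), a ratio of 0.782 (0.683 to 0.895), with an unadjusted p of 0.0028 and an adjusted p of 0.0900 in limma.

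RT1-Bb encodes the beta chain of the RT1.B class II molecule. Its main probe measured 5.88, 5.64, 5.57 and 5.71 in sham replicates 1 to 4 and 5.41, 5.20, 5.48 and 5.36 in nephrectomized replicates 1 to 4. The groups did not overlap, though sham replicate 3 and nephrectomized replicate 3, both on slide 2, lay close together. The difference was -0.34 ± 0.09 (SE; 95% interval -0.54 to -0.13), a ratio of 0.792, with an adjusted p of 0.115 in limma. A second, dimmer probe of RT1-Bb differed by -0.45 ± 0.17.

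RT1-Ba encodes the alpha chain that pairs with RT1-Bb. Its single probe was well above background on 0 of 8 arrays, so it had no reliable level in either group and no ratio is given. RT1-DMb matched no probe by accession and was not analysed here.

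RT1-Da encodes the alpha chain of the other classical class II molecule, RT1.D. It measured 4.42, 4.24, 4.11 and 4.28 in sham replicates 1 to 4 and 4.01, 3.84, 4.20 and 4.09 in nephrectomized replicates 1 to 4. The groups overlapped, because nephrectomized replicate 3 lay above sham replicate 3. The difference was -0.23 ± 0.09 (SE; 95% interval -0.44 to -0.01), with an adjusted p of 0.292 in limma. Its second probe differed by -0.31 ± 0.13.

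RT1-DMa encodes the alpha chain of DM, the endosomal helper that exchanges the invariant chain fragment for antigenic peptide. It measured 3.25, 3.13, 2.95 and 3.04 in sham replicates 1 to 4 and 2.83, 2.84, 2.92 and 2.86 in nephrectomized replicates 1 to 4. The groups did not overlap, and the nephrectomized kidneys were closely spaced (SD 0.04, n = 4) beside the sham kidneys (SD 0.13, n = 4). The difference was -0.23 ± 0.07 (SE; 95% interval -0.40 to -0.06), with an adjusted p of 0.172 in limma.

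The size of these differences was not the same on both slides. Cd74 differed by -0.48 on slide 1 and -0.22 on slide 2, each slide setting 2 nephrectomized arrays against 2 sham arrays. RT1-Bb differed by -0.46 and -0.22. RT1-Da differed by -0.40 and -0.05, and RT1-DMa by -0.36 and -0.11. All 4 genes were thus lower on both slides, with the larger difference on slide 1 for each, and the contrast between slides was not tested. With slide as a block the adjusted p in limma was 0.109 for Cd74, 0.155 for RT1-Bb, 0.325 for RT1-Da and 0.192 for RT1-DMa. RT1 genes resemble each other in sequence, and whether their probes bind one another's transcripts was not tested.

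**Figure D2:**
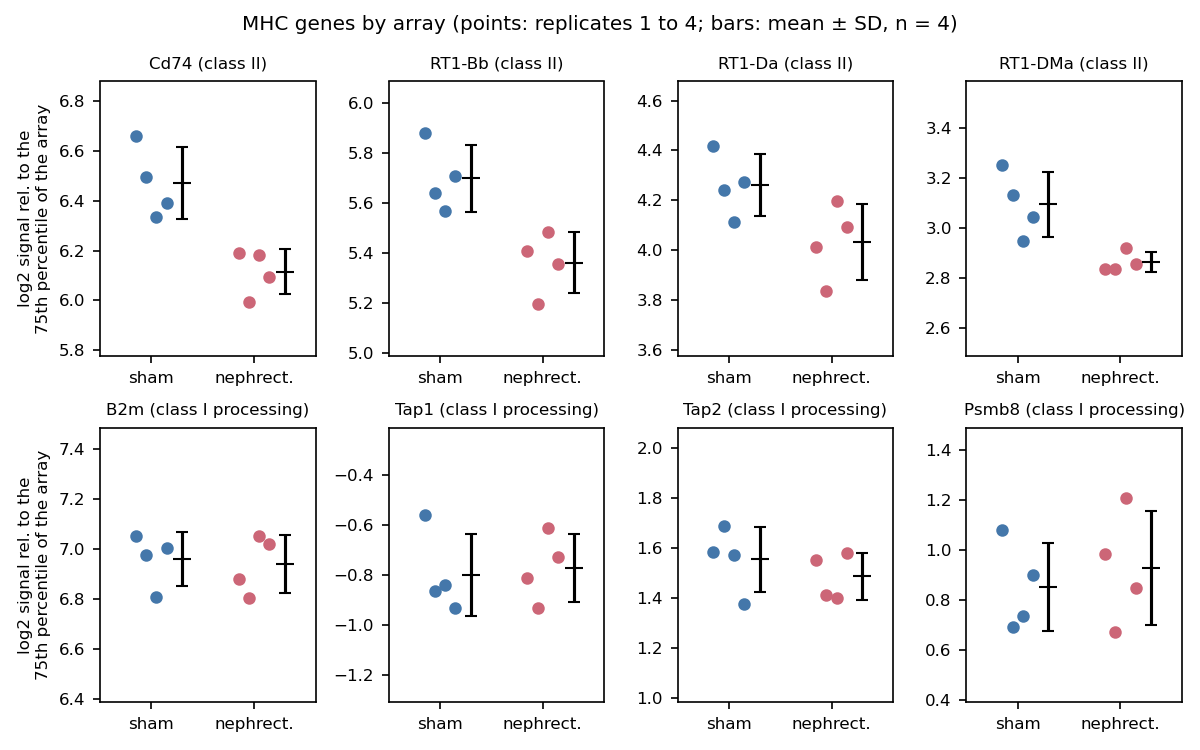
Level of each of the 8 tested genes on each array (y axis: log2 intensity relative to the array's 75th percentile), by group, with points for arrays and bars for the group mean and SD (n = 4). Groups are apart in Cd74, RT1-Bb and RT1-DMa and overlap in RT1-Da, B2m, Tap1, Tap2 and Psmb8.

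The class I processing genes gave differences close to 0. Of the 4, 2 had a negative and 2 a positive difference, 0 reached an unadjusted limma p under 0.05, 0 were called, and their median difference was 0.0035. The groups overlapped in all 4.

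B2m encodes the light chain shared by all class I molecules. It measured 7.05, 6.98, 6.81 and 7.004 in sham replicates 1 to 4 and 6.88, 6.80, 7.05 and 7.02 in nephrectomized replicates 1 to 4. The difference was -0.02 ± 0.08 (SE; 95% interval -0.21 to 0.16, adjusted p = 0.931 in limma), and its 4 probes differed by between -0.03 and -0.02.

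Tap1 and Tap2 encode the paired subunits of the peptide transporter. Tap1 measured -0.56, -0.86, -0.84 and -0.93 in sham replicates 1 to 4 and -0.81, -0.93, -0.61 and -0.73 in nephrectomized replicates 1 to 4, a difference of 0.03 ± 0.10 (SE; 95% interval -0.20 to 0.26). Tap2 measured 1.58, 1.69, 1.57 and 1.37 in sham replicates 1 to 4 and 1.55, 1.41, 1.40 and 1.58 in nephrectomized replicates 1 to 4, a difference of -0.07 ± 0.08 (SE; 95% interval -0.26 to 0.12). In both genes the sham and nephrectomized kidneys were intermixed, and the adjusted p in limma was 0.928 for Tap1 and 0.734 for Tap2.

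Psmb8 encodes a catalytic subunit of the immunoproteasome, the interferon-inducible form of the proteasome. It measured 1.08, 0.69, 0.73 and 0.90 in sham replicates 1 to 4 and 0.99, 0.67, 1.21 and 0.85 in nephrectomized replicates 1 to 4. Nephrectomized replicate 3 was the highest and replicate 2 the lowest of the 8 arrays, so the widest spread was inside that group. The difference was 0.08 ± 0.13 (SE; 95% interval -0.22 to 0.37, adjusted p = 0.825 in limma).

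The interval of Tap2, with a lower bound of -0.26, reached the -0.23 of RT1-Da and RT1-DMa. Those of B2m, Tap1 and Psmb8, with lower bounds of -0.21, -0.20 and -0.22, ended just above it, without adjustment for multiple testing. The intervals of all 4 tested class II genes overlapped those of all 4 class I processing genes. They were -0.55 to -0.16 for Cd74, -0.54 to -0.13 for RT1-Bb, -0.44 to -0.01 for RT1-Da and -0.40 to -0.06 for RT1-DMa. The misses of the threshold do not show equal levels. On slide 1 the differences of B2m, Tap1, Tap2 and Psmb8 were -0.17, -0.16, -0.15 and -0.06. On slide 2 they were 0.13, 0.22, 0.02 and 0.21, so the sign turned between slides for all 4.

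**Figure D3:**
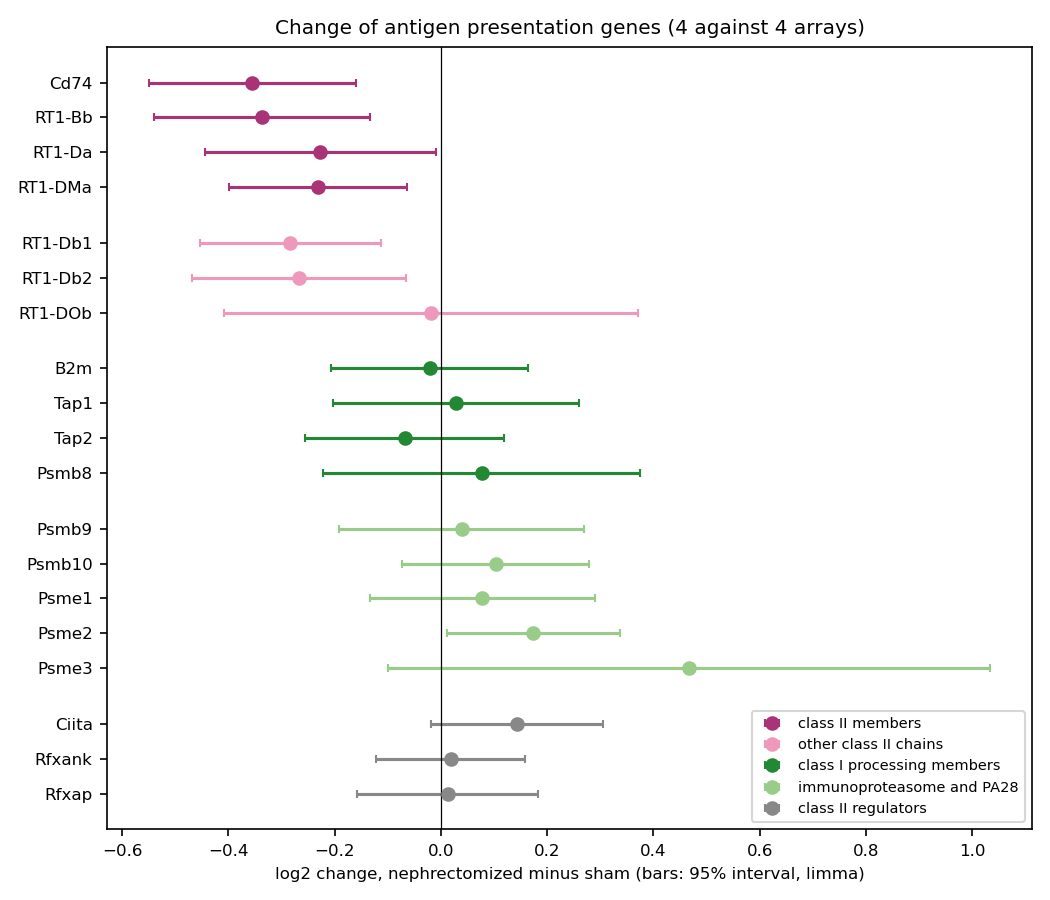
Differences (x axis: log2, nephrectomized minus sham) with 95% intervals from limma (n = 4 arrays a group) of the 8 tested genes and, in paler colours and grey, of related class II chains, immunoproteasome and PA28 genes and class II regulators. The intervals of the 4 class II genes lie below 0 without adjustment for multiple testing, and those of B2m, Tap1, Tap2 and Psmb8 include 0.

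The class II and class I genes were set against each other within each array, since a shift of a whole array cancels there. For each array the mean deviation of the 4 class II genes from their sham means was taken, and the same for the 4 class I processing genes. The class II deviation was 0.17, -0.0037, -0.14 and -0.03 in sham replicates 1 to 4 and -0.27, -0.42, -0.19 and -0.28 in nephrectomized replicates 1 to 4. The class I deviation was 0.15, -0.02, -0.07 and -0.06 in the sham and 0.01, -0.15, 0.12 and 0.04 in the nephrectomized replicates. Both classes were thus highest among the sham arrays in replicate 1 and lowest among the nephrectomized arrays in replicate 2.

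With the class I deviation subtracted, the class II deviation was 0.02, 0.02, -0.07 and 0.03 in the sham replicates and -0.28, -0.26, -0.31 and -0.32 in the nephrectomized replicates. The groups did not overlap in this difference, and the nephrectomized mean was -0.29 ± 0.03 (SD, n = 4) relative to the sham mean, whose SD was 0.05 (n = 4). It was -0.29 on slide 1 and -0.29 on slide 2. Since the genes were chosen with results of these data known, this is a description with no test.

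**Figure D4:**
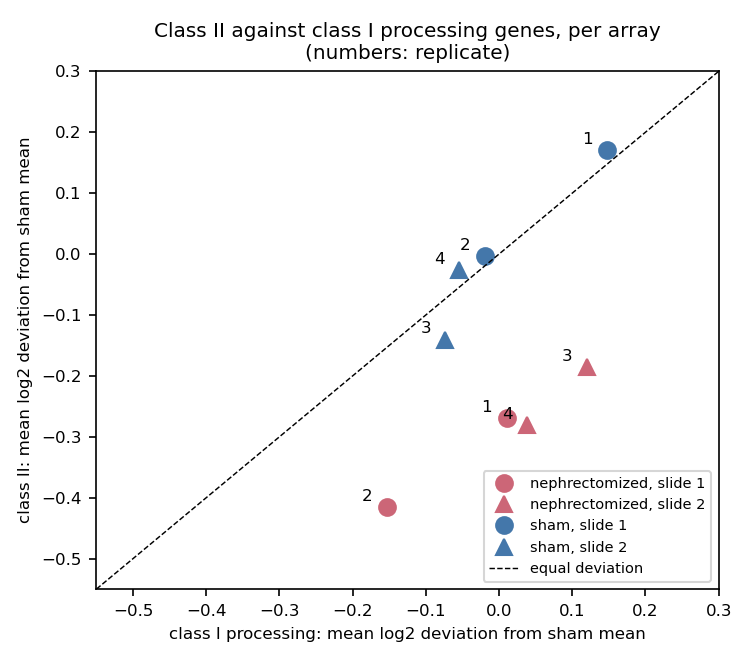
Mean deviation of the class I processing genes (x axis, log2) against that of the class II genes (y axis, log2) from their sham means, with 1 point per array labelled by replicate and shaped by slide. Sham arrays lie -0.07 to 0.03 from the line of equal deviation, and the 4 nephrectomized arrays lie 0.26 to 0.32 below it.

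The class II genes also varied together among arrays of the same group. After each group's mean was removed, the 6 pairs of class II genes had correlations over the 8 arrays from 0.741 to 0.938 (median 0.831). The 6 pairs of class I processing genes ranged from -0.251 to 0.783 (median 0.435), and the 16 pairs across the classes from -0.0227 to 0.948 (median 0.728). The arrays and their scaling are shared by all pairs, and the pairs across classes were also high, so these values describe the arrays as well as the genes.

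Among 10232 other named genes, those whose levels over the 8 arrays were most like Cd74 were Crebrf (Pearson r = 0.972), Pbld1 (0.971), Rnf31 (0.970), Ythdf1 (0.965), Mab21l3 (0.963), Cyp2e1 (0.961), Hmox1 (0.961) and Gin1 (0.960). The largest group difference among these was that of Hmox1, heme oxygenase 1, at -0.72 ± 0.13 (SE, adjusted p = 0.0519 in limma). None of the 8 encodes a class II chain. Cd74, RT1-Bb, RT1-Da, RT1-DMa, B2m, Tap1, Tap2 and Psmb8 were left out of this ranking. The other tested class II chains, described below, were kept in it. RT1-Db1 stood at rank 242 (r = 0.849), RT1-Db2 at 439 (0.795) and RT1-DOb at 6834 (-0.273). RT1-Bb correlated with Cd74 at r = 0.968, RT1-DMa at 0.956 and RT1-Da at 0.885. Set among the ranked genes, RT1-Bb would stand at rank 4, RT1-DMa at 13 and RT1-Da at 135. The same other named genes were also ranked by likeness to Psmb8. Most like it were Nudcd1 (r = 0.970), Slc13a2 (0.960), Mob1a (0.952), Gbp2 (0.949), Psmb9 (0.946), Bag3 (0.946), Emcn (0.943) and Trex1 (0.934). Psmb9 encodes another immunoproteasome subunit, and Gbp2 an interferon-induced GTPase. With 8 arrays and so many genes, high correlations are found for many genes, and no test was made.

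The other genes of the pathway numbered 91. The array held 51 of them, 43 were tested, and 0 were called in either direction. At an unadjusted limma p under 0.05, 2 were lower, against the 6.3% of all features given above, and 4 were higher, against 9.74% of all features. Their median difference was 0.01, with 19 negative and 24 positive, where 10990 of all 20935 features were positive.

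The remaining class II chains included RT1-Db1 and RT1-Db2, the beta chains related to the RT1.D molecule, and RT1-DOb, a chain of the DO modulator of DM. RT1-Db1 measured 4.29, 4.27, 4.22 and 4.26 in sham replicates 1 to 4 and 3.90, 3.85, 4.16 and 4.01 in nephrectomized replicates 1 to 4. Those groups did not overlap, and the sham kidneys differed little among themselves. The difference of RT1-Db1 was -0.28 ± 0.07 (SE, adjusted p = 0.114 in limma), with -0.41 on slide 1 and -0.16 on slide 2. RT1-Db2 differed by -0.27 ± 0.09 (adjusted p = 0.188 in limma), and its nephrectomized replicate 3 overlapped the sham range. RT1-DOb differed by -0.02 ± 0.17. RT1-Db1 and RT1-Db2 correlated with Cd74 within the groups at 0.424 and 0.395, below the 0.890 of RT1-Bb, the 0.798 of RT1-Da and the 0.865 of RT1-DMa.

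The tested upstream regulators of class II had differences close to 0. Ciita, the class II coactivator, had means of -2.69 ± 0.13 in sham and -2.55 ± 0.03 in nephrectomized kidneys (SD, n = 4 each), a difference of 0.14 ± 0.07 (SE, adjusted p = 0.369 in limma). Rfxank and Rfxap, subunits of the factor that binds the X box, differed by 0.02 ± 0.06 and 0.01 ± 0.07 (SE). The dimmest Rfxank probe differed by -0.04. Rfx5, another subunit, was well above background on 0 of 8 arrays and was not tested. Thus 3 of 3 tested regulators were positive, as were 10990 of all 20935 features, and 0 passed an unadjusted limma p under 0.05. No direction is read from these signs.

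The lysosomal proteases and reductase, which can prepare peptides for class II, were positive in 6 of 6 tested genes. Over the whole array 10990 of 20935 features were positive. The median of the 6 was 0.13, and 0 were called. Lgmn, the endosomal protease legumain, had means of 5.13 ± 0.26 and 5.51 ± 0.12 (SD, n = 4 each), a difference of 0.38 ± 0.13 (SE, adjusted p = 0.203 in limma). Ctsd, cathepsin D, differed by 0.29 ± 0.11 (adjusted p = 0.240), and Ifi30, the lysosomal thiol reductase, by 0.16 ± 0.07 (adjusted p = 0.288). In all 3 the groups overlapped. Ctss, cathepsin S, the main protease of the invariant chain in professional antigen-presenting cells, differed by 0.02 ± 0.08. Its dimmer probe differed by -0.05 ± 0.09.

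On the class I side, 12 of 16 tested members of the heavy chain family were negative, with a median of -0.06 and a range from -0.12 to 0.27. Over the whole array 9945 of 20935 features were negative and 10990 positive. The immunoproteasome and PA28 genes were positive in 5 of 5, with a median of 0.10, and Psme2, a PA28 subunit, differed by 0.17 ± 0.07 (SE, adjusted p = 0.283 in limma). Peptide loading genes were split, with 2 negative and 3 positive and a median of 0.01. Psme3, another PA28 subunit, did not overlap between groups, as held for 7.06% of all features with nephrectomized kidneys higher, and its sham replicate 1 stood at 1.52 beside 2.60 to 2.70 in the other sham kidneys.

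**Figure D5:**
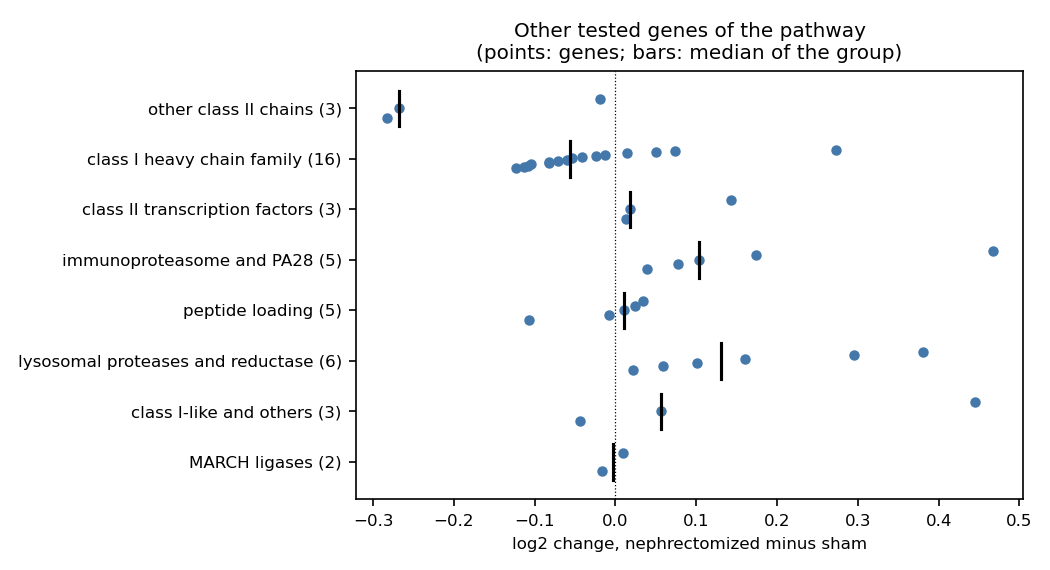
Differences (x axis: log2, nephrectomized minus sham) of the other tested pathway genes by functional group, with points for genes and bars for group medians. The other class II chains lie at or below 0 and the lysosomal enzymes above it, and 0 of the 43 genes were called.

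Markers of immune and endothelial cells had mostly negative differences too. They cover cell types that can carry class II, and also T cells. Of 33 markers, 26 were on the array and 17 were tested. Of these, 15 were negative and 2 positive, with a median difference of -0.14, while 9945 of all 20935 features were negative. Among the tested markers 1 was called lower, where 0.287% of all features were, and 0 were called higher, where 0.75% were. Adgre1, which encodes a surface receptor typical of macrophages, measured -0.81, -0.65, -0.63 and -0.66 in sham replicates 1 to 4 and -1.35, -1.33, -1.01 and -1.11 in nephrectomized replicates 1 to 4. The groups did not overlap. Adgre1 fell by 0.51 ± 0.09 (SE, adjusted p = 0.0476 in limma), and this call was lost whenever any 1 of the 8 arrays was left out (differences from -0.58 to -0.46).

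Other markers did not pass. Of the other macrophage markers, Cd68 differed by -0.11 ± 0.08 (SE), Csf1r by -0.05 ± 0.10 and C1qa by -0.13 ± 0.06. C1qb differed by -0.05 ± 0.08 and Aif1 by 0.05 ± 0.07. Ptprc, the pan-leukocyte antigen CD45, differed by -0.33 ± 0.12 (adjusted p = 0.239 in limma). Cd86, a costimulatory ligand of antigen-presenting cells, differed by -0.16 ± 0.06 (adjusted p = 0.243), Cd40 by -0.14 ± 0.06 (adjusted p = 0.321) and the complement gene C1qc by -0.15 ± 0.07 (adjusted p = 0.349). The dimmest tested probe gave -0.13 ± 0.41 for Ptprc, -0.10 ± 0.16 for Cd86 and -0.13 ± 0.09 for C1qc (SE). The summed linear level of the tested markers, relative to the 75th percentile, ran from 36.7 to 38.4 in sham and from 33.4 to 38.8 in nephrectomized kidneys, which overlap. The brightest probes, those of C1qb, C1qa and Aif1, made up most of this sum, so it says little about the dimmer markers such as Adgre1 and Ptprc.

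Several defining markers could not be read. Itgam, Xcr1, Cd80, Ccr7, Cd79b and Cd4 were well above background on 0 of 8 arrays, and Cd163 and Cd3e each on 1. Itgax, Flt3, Zbtb46, Clec9a, Irf8, Cd79a and Ms4a1 matched no probe by accession and were not analysed here. Dendritic cells and B cells therefore had no tested defining marker. The part of cell numbers in the class II values was not tested.

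Interferon signalling genes had a median difference above 0. Of 22 genes, 21 were on the array and 20 were tested, with 7 negative and 13 positive, a median difference of 0.09 and 0 called. Over all features 10990 of 20935 were positive, with a median of 0.0089. The interferon-induced Mx2 differed by 0.68 ± 0.29 (SE, adjusted p = 0.303 in limma) and Isg15 by 0.55 ± 0.24 (adjusted p = 0.315), with overlapping groups. Ifngr1, a chain of the interferon gamma receptor, differed by -0.16 ± 0.09 (adjusted p = 0.394).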

How the data were processed

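Kidney total RNA was purified on silica columns and dyed with Cy3 in an amplification step, per the labels' protocols. The scanner files deposited by the authors, 1 per array, come from Agilent Feature Extraction 10.5.1.1 (file headers). They hold a processed intensity per spot on a linear scale, from which background was subtracted, with no scaling across arrays, per the file headers. A series table was also deposited, in log2 units that the labels do not explain. Against the scanner values it had a correlation of at least 0.999994 and a slope of 1.00 on every array, so its scale was log2, shifted by the 75th percentile of the array, with probes centred and the direction unchanged. Its column medians were -0.0145, -0.00231, -0.00103 and -0.00968 for sham and 0.00123, 0.0124, -0.000916 and 0.0153 for nephrectomized replicates 1 to 4.

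From the intensity, log2 values minus each array's 75th percentile (signal 388 to 643) were computed. Of 45018 spots, 1639 control spots and 90 to 187 outlier spots per array were left out, and spots of a probe were averaged. Tests covered the 25228 probes that were measured on all 8 arrays and exceeded background clearly on at least 4. RefSeq accessions named 18713 of 41012 probes with 1 symbol, 0 with several and 22299 with none, through the GRCr8 gene table. Coordinates of array probes are not used, as the headers name another build. The brightest tested probe stood for each gene. The group comparison was an lmFit and eBayes model in limma 3.58.1 under R 4.3.3, without covariates, at 6 residual and 2.37 prior degrees of freedom. The number of arrays limits the precision. The steps were tested on simulated data.

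The genes, lists and alternatives were chosen with earlier results of these data known. Named are all 10 genes and every called list member. By smallest adjusted p, 6 further pathway genes and 4 further genes of each other list are named. So are the 8 genes outside those 10 that correlated most with Cd74 and with Psmb8. Some list genes that this rule names are not reported here. RT1-DOb, Ciita, Rfxank, Rfxap, Rfx5, Ctss, Psme3 and the kidney markers named were chosen after their values were seen. So were Cd68, Csf1r, C1qa, C1qb and Aif1. The alternatives changed background correction, normalization, filter, probe choice, variance model, slide, replicate block and the values used, and left out each array. Normexp used the median spot signal with an offset of 50.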

Additional observations from a re-analysis of the deposited data

Results flagged for a closer look

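Of 78 groups of 4 arrays examined for the named genes, 1 held an array far from the others. For Adgre1, sham replicate 1 measured -0.81 and the other sham replicates -0.66 to -0.63, so the gap to its nearest neighbour was 0.868 of the group's range. All 4 nephrectomized arrays lay below it.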

How the results depend on the processing

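The differences of Cd74, RT1-Bb, RT1-Da and RT1-DMa were negative under all 22 alternatives, but several of these could not change the sign. The filters, the variance model and the slide and replicate blocks left the differences as they were (Cd74 at -0.35 in each). Probe choice could not alter Cd74 or RT1-DMa, which had a single probe. Calls among the 10 genes were rare. The count called lower went from 0 to 1 with normexp (RT1-Bb, -0.43, adjusted p = 0.0483 in limma), to 1 with quantile normalization (Cd74, -0.42, 0.0451), to 1 with cyclic loess (Cd74, -0.42, 0.0473) and to 1 with trend and robust variance (Cd74, -0.35, 0.0477). Over the alternatives the adjusted p of Cd74 ran from 0.0451 to 0.641 and that of RT1-Bb from 0.0483 to 0.673. RT1-Da and RT1-DMa were called under none of them. In the pathway list 1 gene was called lower with normexp (RT1-Db1, -0.36, 0.0361). No cause of these changes was tested.

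The class II median was -0.43 on slide 1 and -0.16 on slide 2, and the class I processing median -0.16 and 0.17. Leaving out 1 array gave class II medians from -0.33 to -0.23 and class I medians from -0.03 to 0.06. Class II minus class I was -0.34 with the dimmest probe of each gene and between -0.31 and -0.28 with 1 array left out. The cell markers had 0 called lower with normexp, no filter, the dimmest probe, either slide alone, the replicate block, and each array left out (0 to 0).

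Over all features, 157 higher and 60 lower calls became 17 and 3 with no filter, 295 and 99 with the filter on all 8 arrays, 398 and 132 with trend and robust variance, and 69 and 31 with slide as a block. The dimmest probe gave 39 lower. Each slide alone gave 0 and 0 in limma, with 1216 higher and 666 lower at an unadjusted p under 0.05 on slide 1 and 1069 and 673 on slide 2. Leaving out 1 array gave 18 to 162 higher and 4 to 35 lower, with the fewest without sham replicate 2. Same-numbered arrays deviated together at 0.14, 0.01, -0.06 and -0.21, so the numbers are not shown to pair the samples. The replicate block gave 6 higher and 4 lower and 0 of the 10 genes.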
